A study of Mus musculus with 20 samples.

Results

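The genes described here make, carry, clear and sense retinoic acid, and were read from RNA sequencing of optic nerve and corpus callosum of Zdhhc9 knockout (KO) and wild-type (WT) mice. They are the rows of the gene table whose Ensembl identifier, without its version, belongs to Aldh1a1, Aldh1a2, Aldh1a3, Crabp1, Crabp2, Rarb, Stra6, Cyp26b1 or Rdh10. All 9 were found among 46517 genes. Optic nerve, which carries the axons of the retina to the brain, was sampled in 5 KO libraries (KO_ON) and 4 WT libraries (WT_ON). Corpus callosum, which links both sides of the forebrain and was cut from frozen brain sections, was sampled in 6 KO libraries (KO_CCg) and 5 WT libraries (WT_CCg). The labels call the mice knockouts, the series text calls them knockdowns, and the sources used here give no allele, strain, age or sex. Libraries held 15401130 to 26095622 estimated counts, and no label says whether libraries of a group came from separate litters or days, so the p-values measure the spread between these libraries.

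Retinoic acid is made from vitamin A in steps. Retinol enters the cell, with STRA6 as a receptor for its plasma carrier in some tissues. Retinol is oxidised to retinal, for which RDH10 is a main enzyme in the embryo, and the ALDH1A enzymes turn retinal into retinoic acid. CRABP proteins carry retinoic acid inside the cell, CYP26 enzymes break it down, and nuclear receptors such as RARB bind it and switch genes on. In the central nervous system of adult mice, the meninges that wrap the brain and the optic nerve are a known source of retinoic acid, and Rarb is known for its expression in the striatum, the grey matter beside the callosum.

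Zdhhc9, the gene that the labels name as knocked out, ranged from 35.1 to 51.4 CPM (counts scaled to the library total, with TMM factors over all 20 libraries) in KO_ON, against 115 to 150 CPM in WT_ON, and from 40.8 to 56.0 CPM in KO_CCg, against 153 to 201 CPM in WT_CCg. Its RNA was thus lower in the KO libraries of both tissues but not absent. Both tissues carried the markers of their main cell type. The summed level of 7 oligodendrocyte markers ranged from 56290 to 80177 CPM in KO_ON, 73210 to 88607 CPM in WT_ON, 31208 to 60823 CPM in KO_CCg and 49772 to 82844 CPM in WT_CCg, and no marker was at 0. The callosum libraries also held 8 of 8 markers of striatal projection neurons, whose summed level ranged from 549 to 1449 CPM in KO_CCg and 323 to 721 CPM in WT_CCg. KO_ON_719856 stood apart among the nerve libraries, with a summed level of 8 photoreceptor and pigment epithelium markers of 110 CPM, against 25.0 to 29.3 CPM in the other KO_ON libraries and 24.0 to 27.9 CPM in WT_ON.

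Promoter windows of 300 bases, from 250 bases before to 50 after a transcript start, were taken from RefSeq (GRCm38.p6), which held 10 windows for 6 of the 9 genes and none for Aldh1a3, Crabp2 and Rdh10. The windows of 3 genes are shown 5′ to 3′ on the gene's strand, because Rarb is a textbook target of retinoic acid and because Aldh1a2 and Cyp26b1, which make and clear it, were both far higher in the nerve. In the Rarb window (chr14:16575427-16575726, minus strand) the capitals mark a pair of half-sites of retinoic acid receptors in the same direction with 5 bases between them. In the Cyp26b1 window (chr6:84593761-84594060, minus strand) they mark the motif TATAAA, and in the Aldh1a2 window (chr9:71215539-71215838, plus strand) the motif CCAAT.
Rarb: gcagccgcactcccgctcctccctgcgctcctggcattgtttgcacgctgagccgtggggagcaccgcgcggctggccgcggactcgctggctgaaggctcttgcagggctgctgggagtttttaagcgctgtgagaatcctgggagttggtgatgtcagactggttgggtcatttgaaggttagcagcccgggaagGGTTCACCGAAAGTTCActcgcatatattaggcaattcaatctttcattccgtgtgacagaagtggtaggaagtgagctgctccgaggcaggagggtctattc
Cyp26b1: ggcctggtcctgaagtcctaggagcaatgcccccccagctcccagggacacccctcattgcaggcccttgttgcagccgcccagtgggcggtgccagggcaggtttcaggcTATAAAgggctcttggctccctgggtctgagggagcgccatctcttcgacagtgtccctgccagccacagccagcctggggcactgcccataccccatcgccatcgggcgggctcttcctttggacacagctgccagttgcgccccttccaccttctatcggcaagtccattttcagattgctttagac
Aldh1a2: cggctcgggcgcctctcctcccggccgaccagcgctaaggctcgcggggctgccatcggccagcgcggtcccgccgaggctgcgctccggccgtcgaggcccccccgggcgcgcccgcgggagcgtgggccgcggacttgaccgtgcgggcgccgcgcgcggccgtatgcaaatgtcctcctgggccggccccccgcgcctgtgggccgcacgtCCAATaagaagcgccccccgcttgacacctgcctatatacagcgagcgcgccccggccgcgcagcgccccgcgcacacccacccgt

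Half-sites were searched on both strands, first in the consensus spelling AGGTCA and in its close variant GGGTCA. The other spellings searched were AGTTCA, as at the end of the Rarb repeat, and lastly GGTTCA, as at its start. At least 1 of these spellings was present in 43.7% of all 32851 windows. A repeat of any of them in the same direction with 5 bases between was present in 32 windows, or 0.0974%. Among the 10 windows of these genes, the Rarb window alone held such a repeat, which begins 53 bases before the transcript start. AGTTCA and GGTTCA are the spellings of the Rarb repeat itself, so its match was fixed by their choice. The 17 bases from the first half-site to the second read as follows.
Rarb repeat: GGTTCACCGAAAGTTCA
Cyp26a1 repeat: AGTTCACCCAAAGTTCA
The second line comes from the window of Cyp26a1, another enzyme that clears retinoic acid and a textbook target of it (chr19:37697558-37697857, plus strand), and is read on the opposite strand of that window. Repeats with 1 or 2 bases between them were searched in the same way, occurred in 0.222% and 0.268% of all windows, and were found in none of the 10 windows. TATAAA was present in 13.6% and CCAAT in 37.4% of all windows. The Aldh1a2 window was 78.0% G or C with 50 CpG dinucleotides, against medians of 52.7% and 7 over all windows. A match describes these letters and is not a measured site.

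**Figure D1:**
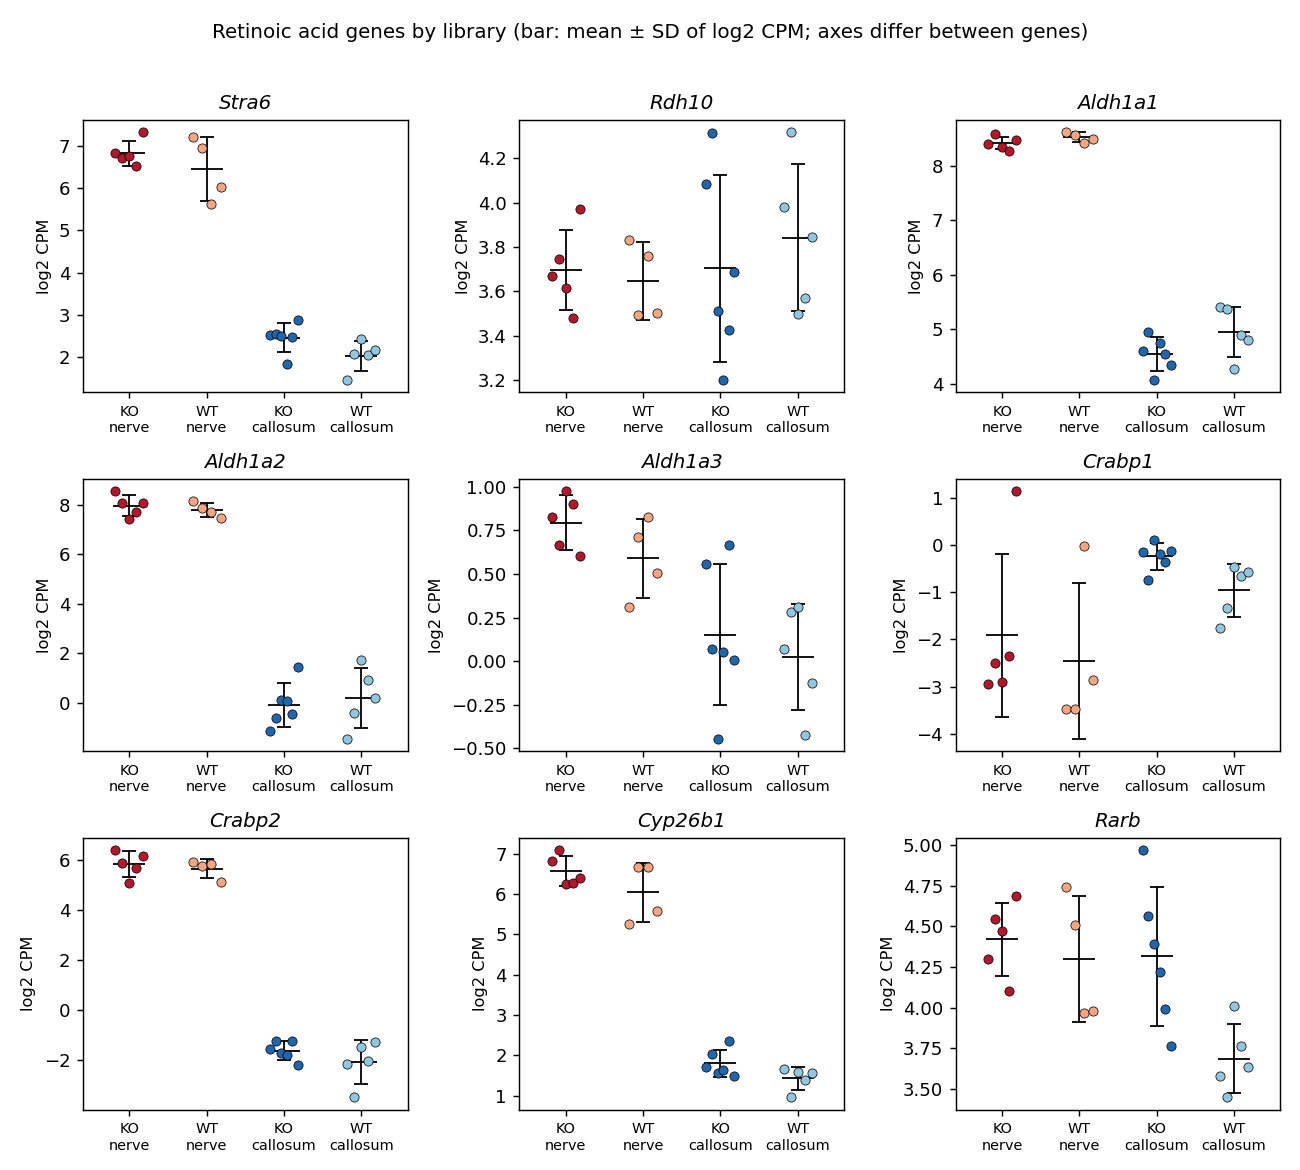
Levels of the 9 genes in each library, as log2 CPM with a prior count of 2 on the vertical axes, which differ between genes; points are libraries and bars are the mean and SD of KO nerve (5), WT nerve (4), KO callosum (6) and WT callosum (5). Stra6, Aldh1a1, Aldh1a2, Crabp2 and Cyp26b1 have every nerve library above every callosum library, and KO and WT libraries overlap for every gene in both tissues. The shares of all genes that were apart or overlapped were not counted.

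The largest differences were between the tissues. In KO mice, 5 of the 9 genes were higher in optic nerve than in corpus callosum (edgeR quasi-likelihood test, Benjamini-Hochberg adjusted p under 0.05 over all genes, with a log2 fold change of 1 or more in either direction) and 0 were lower. Of all 16440 genes tested, 30.1% were called in that comparison, 14.9% higher and 15.2% lower. In WT mice the count was again 5 higher and 0 lower, against 26.2% of all genes, 13% higher and 13.2% lower. The 5 genes were the same in both genotypes, Stra6, Aldh1a1, Aldh1a2, Crabp2 and Cyp26b1. Of these, Crabp2 failed the count filter within callosum and was tested through its nerve level, so its call was bound to be found. The median log2 fold change of the 9 genes was 3.85 in KO and 3.52 in WT mice, against -0.00085 in KO and -0.026 in WT mice over all genes tested. In whole tissue, more cells of a type and more RNA per cell cannot be told apart. Levels by library are listed below in a fixed order unless another is given. For nerve it is KO_ON_48038A7, KO_ON_48118A4, KO_ON_693452, KO_ON_717651 and KO_ON_719856, then WT_ON_700858, WT_ON_701297, WT_ON_717652 and WT_ON_719857. For WT callosum it is WT_CCg_28, WT_CCg_30, WT_CCg_685232, WT_CCg_717652 and WT_CCg_7198587.

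Stra6 (ENSMUSG00000032327.13, chromosome 9, 58063788 to 58153996), the retinol receptor, had 113, 104, 109, 92.2 and 160 CPM in the KO_ON libraries and 149, 123, 49.4 and 65.4 CPM in the WT_ON libraries. In KO_CCg its lowest, median and highest levels were 3.51, 5.61 and 7.31 CPM, and the WT_CCg libraries had 2.67, 4.10, 5.35, 4.06 and 4.38 CPM. Every nerve library was thus above every callosum library, and the WT nerve libraries fell into a higher and a lower pair. The log2 fold change of nerve over callosum was 4.38 (SE 0.26, adjusted p = 2.80e-11) in KO mice and 4.54 (SE 0.30, adjusted p = 1.51e-10) in WT mice by edgeR.

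Rdh10 (ENSMUSG00000025921.7, chromosome 1, 16105774 to 16133734), which oxidises retinol to retinal, was at a similar level in all groups. Its levels were 12.6, 13.3, 12.1, 11.1 and 15.6 CPM in KO_ON and 14.2, 11.2, 13.5 and 11.2 CPM in WT_ON. In KO_CCg the lowest, median and highest levels were 9.10, 12.05 and 19.8 CPM, and in WT_CCg the libraries had 15.7, 19.8, 11.2, 11.8 and 14.3 CPM. All 4 groups overlapped. The log2 fold change of nerve over callosum was -0.048 in KO mice (95% interval -0.43 to 0.33) and -0.22 in WT mice (95% interval -0.64 to 0.21). The level in callosum moved with the format of the sample number, since the libraries with 2-digit numbers averaged 18.3 CPM in KO_CCg and 17.8 CPM in WT_CCg, against 10.96 CPM in KO_CCg and 12.4 CPM in WT_CCg in those with longer numbers. Without the libraries with 2-digit numbers the log2 fold change of nerve over callosum was 0.24 in KO and 0.0080 in WT mice.

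Aldh1a1 (ENSMUSG00000053279.6, chromosome 19, 20492715 to 20643465), one of the enzymes that make retinoic acid, had 335, 380, 326, 309 and 356 CPM in KO_ON and 390, 379, 340 and 360 CPM in WT_ON. In KO_CCg its lowest, median and highest levels were 16.8, 23.7 and 30.9 CPM, and the WT_CCg libraries had 42.6, 41.2, 19.3, 29.8 and 27.8 CPM. The nerve libraries lay close together and far above the callosum libraries. Nerve exceeded callosum by a log2 fold change of 3.85 in KO mice (SE 0.18, adjusted p = 6.80e-13) and of 3.52 in WT mice (SE 0.19, adjusted p = 1.51e-11) in the edgeR fit. Aldh1a7, its closest paralog, was at most 1.79 CPM in any library and went the other way, with log2 fold changes of -1.50 (SE 0.37) in KO and -1.005 (SE 0.39) in WT mice. Reads shared between the 2 paralogs could be split either way by the quantifier, so the value of Aldh1a7 is uncertain.

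Aldh1a2 (ENSMUSG00000013584.5, chromosome 9, 71215789 to 71296243), the main enzyme of retinoic acid synthesis in the mouse embryo and a textbook marker of meningeal fibroblasts, had 378, 270, 172, 211 and 268 CPM in KO_ON and 285, 235, 212 and 177 CPM in WT_ON. Its lowest, median and highest levels in KO_CCg were 0.358, 0.793 and 2.65 CPM, and the WT_CCg libraries had 0.274, 0.666, 3.25, 1.78 and 1.03 CPM. The gene was low in every callosum library and high in every nerve library, with no overlap. Its level in callosum also moved with the format of the sample number in the labels, since the libraries with 2-digit numbers averaged 0.461 CPM in KO_CCg and 0.470 CPM in WT_CCg, against 1.31 CPM in KO_CCg and 2.02 CPM in WT_CCg in those with longer numbers. Its log2 fold change of nerve over callosum was 7.95 (SE 0.46, adjusted p = 1.48e-11) in KO mice and 7.26 (SE 0.49, adjusted p = 2.33e-10) in WT mice by edgeR, a fold of 247 in KO and 153 in WT mice. The size of the fold rests on the low callosum levels, and over the 3 KO sample numbers present in both tissues the log2 fold change was 7.28. Ordered by log2 fold change over all 16440 genes tested, it had rank 23 in KO and rank 42 in WT mice.

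Aldh1a3 (ENSMUSG00000015134.13, chromosome 7, 66390890 to 66427517), the remaining enzyme of that group, was low everywhere. It ranged from 1.44 to 1.87 CPM in KO_ON, 1.17 to 1.71 CPM in WT_ON, 0.624 to 1.48 CPM in KO_CCg and 0.655 to 1.16 CPM in WT_CCg. The WT groups only just did not overlap, with 1.169 CPM in the lowest WT_ON and 1.160 CPM in the highest WT_CCg library, and the KO groups overlapped. The log2 fold change of nerve over callosum was 0.64 in KO mice (SE 0.23, edgeR adjusted p = 0.0181) and 0.60 in WT mice (SE 0.25, edgeR adjusted p = 0.0551), so that it stayed under the fold of the call in both.

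Per kilobase of the longest transcript, the 3 synthesis enzymes summed to 260 ± 39.6 CPM per kb in KO_ON, 257 ± 27.6 in WT_ON, 10.8 ± 1.99 in KO_CCg and 14.5 ± 3.67 in WT_CCg (SD; n = 5, 4, 6 and 5). Their make-up differed between the tissues. Aldh1a2 held 43.4 ± 6.73% of that sum in KO_ON and 38.9 ± 3.84% in WT_ON, against 4.45 ± 3.84% in KO_CCg and 5.21 ± 5.48% in WT_CCg. Its highest share in any callosum library was 14.4%, and its lowest in any nerve library was 33.9%. The remainder was mostly Aldh1a1, at 56.4 ± 6.70% in KO_ON, 61.0 ± 3.82% in WT_ON, 92.7 ± 3.69% in KO_CCg and 92.8 ± 6.20% in WT_CCg. The share depends on the length used for each gene, and with the length of all exons merged Aldh1a2 was ahead of Aldh1a1 in nerve, at 115 against 69.1 CPM per kb in KO_ON and 100 against 74.4 CPM per kb in WT_ON.

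Crabp1 (ENSMUSG00000032291.8, chromosome 9, 54764748 to 54773110), a carrier of retinoic acid, had 0.040, 0.086, 0.043, 0.104 and 2.11 CPM in KO_ON and 0, 0, 0.888 and 0.047 CPM in WT_ON. The lowest, median and highest KO_CCg libraries had 0.509, 0.803 and 0.989 CPM, and the WT_CCg libraries had 0.205, 0.308, 0.634, 0.541 and 0.579 CPM. A single library of each nerve group was above all callosum libraries of its genotype, and the other nerve libraries, with 0 to 2 estimated counts, were below all of them. The log2 fold change of nerve over callosum was -0.77 in KO mice (95% interval -2.65 to 1.11) and -0.99 in WT mice (95% interval -3.23 to 1.24), and neither was called by edgeR. Without KO_ON_719856, which had 37 estimated counts, the value in KO mice was -3.43 (edgeR adjusted p = 0.0025, range over all alternatives 0.0025 to 0.964). Without WT_ON_717652, which had 20, the value in WT mice was -4.56 (edgeR adjusted p = 0.0149, range over all alternatives 0.0149 to 0.715). Crabp1 failed the count filter within nerve and entered this test through the callosum libraries. With the nerve library of most counts left out, a lower value in nerve was bound to be found, and its size is not determined. KO_ON_719856 is the nerve library with raised photoreceptor markers, with Rbp3 at 26.3 CPM, while WT_ON_717652 had Rbp3 at 0.089 CPM. The part of retinal tissue in the Crabp1 values was not tested.

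Crabp2 (ENSMUSG00000004885.5, chromosome 3, 87948666 to 87953376), the carrier known to hand retinoic acid to its receptor, was far higher in nerve than in callosum. It had 83.6, 59.0, 33.7, 50.5 and 70.3 CPM in KO_ON and 59.1, 54.1, 56.8 and 34.5 CPM in WT_ON. In KO_CCg its lowest, median and highest levels were 0.130, 0.235 and 0.342 CPM, and the WT_CCg libraries had 0.137, 0, 0.277, 0.154 and 0.331 CPM. The callosum values rest on 0 to 8 estimated counts per library, The edgeR log2 fold change of nerve over callosum was 7.90 (SE 0.32, adjusted p = 1.15e-13) in KO mice and 8.03 (SE 0.36, adjusted p = 1.04e-12) in WT mice. Crabp2 failed the count filter within callosum and entered this test through the nerve libraries, where it is high, so that a difference was bound to be found and its exact size is not determined.

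Cyp26b1 (ENSMUSG00000063415.11, chromosome 6, 84571414 to 84593908), which breaks down retinoic acid, had 113, 136, 76.4, 77.4 and 84.5 CPM in KO_ON and 38.1, 101, 102 and 47.6 CPM in WT_ON. In KO_CCg its lowest, median and highest levels were 2.70, 3.10 and 5.00 CPM, and the WT_CCg libraries had 3.08, 1.85, 2.93, 2.51 and 2.85 CPM. Nerve and callosum libraries did not overlap in either genotype. Nerve exceeded callosum by a log2 fold change of 4.82 in KO mice (SE 0.27, adjusted p = 1.09e-11) and of 4.77 in WT mice (SE 0.30, adjusted p = 1.07e-10) in the edgeR fit. The ratio of the per-kilobase sum of the Aldh1a enzymes to Cyp26b1 overlapped between the tissues in each genotype. It ranged from 9.26 to 14.3 in KO_ON against 9.52 to 18.01 in KO_CCg, and from 10.5 to 34.5 in WT_ON against 15.3 to 44.1 in WT_CCg.

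Rarb (ENSMUSG00000017491.8, chromosome 14, 16430839 to 16819156), a receptor for retinoic acid and the gene whose promoter window held the receptor repeat, had 19.6, 23.2, 22.1, 17.1 and 25.6 CPM in KO_ON and 26.7, 22.6, 15.5 and 15.7 CPM in WT_ON. The window lies inside the gene, which begins at 16819156 on the minus strand. The levels are those of the whole gene, which has 7 annotated transcripts. In KO_CCg its lowest, median and highest levels were 13.5, 19.7 and 31.2 CPM, and the WT_CCg libraries had 11.8, 10.8, 15.997, 13.5 and 12.3 CPM. Nerve and callosum overlapped in both genotypes. The log2 fold change of nerve over callosum was 0.065 in KO mice (SE 0.19, edgeR adjusted p = 0.781) and 0.64 in WT mice (SE 0.21, edgeR adjusted p = 0.0153), under the fold of the call. Over all alternatives it ranged from -0.057 to 0.44 in KO and from 0.47 to 0.77 in WT mice. The callosum level of Rarb also differed with the format of the sample number. Libraries with 2-digit numbers averaged 27.4 CPM in KO_CCg and 11.3 CPM in WT_CCg, against 17.2 and 13.9 CPM with longer numbers.

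**Figure D2:**
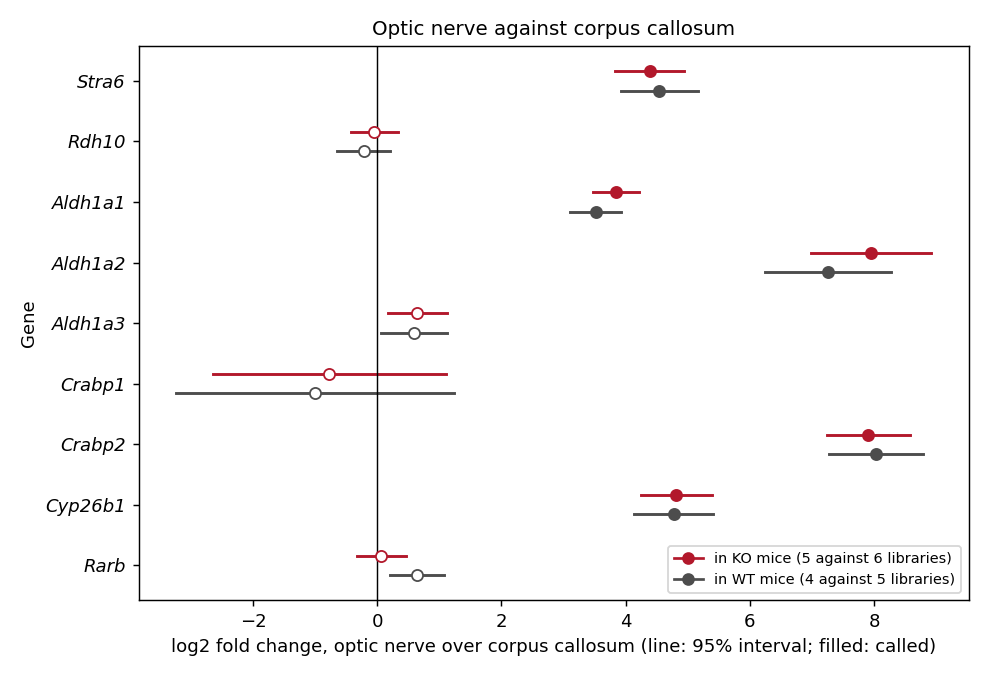
Log2 fold change of optic nerve over corpus callosum on the horizontal axis for each gene, in KO mice (upper line) and WT mice (lower line), with 95% intervals and filled points for genes called by edgeR. The 5 called genes lie between 3.52 and 8.03, and Rdh10, Aldh1a3, Crabp1 and Rarb lie between -0.99 and 0.64.

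Ordered by level per kilobase of the longest transcript, the nerve libraries ran Aldh1a1 (145 in KO_ON and 156 in WT_ON), Aldh1a2 (115 and 100), Crabp2 (63.8 and 54.9), Stra6 (37.6 and 31.4), Cyp26b1 (21.7 and 16.1), Rarb (6.92 and 6.48) and Rdh10 (3.61 and 3.49 CPM per kb), with Aldh1a3 and Crabp1 last. In KO_ON each of the first 4 overlapped with the next in this order, while Cyp26b1 and Rarb were apart. In WT_ON the first 3 were apart, and Crabp2 overlapped with Stra6, Stra6 with Cyp26b1 and Cyp26b1 with Rarb. In callosum the order began with Aldh1a1 (10.1 in KO_CCg and 13.6 in WT_CCg), Rarb (6.62 and 4.15) and Rdh10 (3.74 and 4.06 CPM per kb), and the other 6 genes were each below 1.81 CPM per kb in mean level. Rarb and Rdh10 overlapped there in both genotypes.

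Markers of the meninges moved with the tissue. The 12 leptomeningeal fibroblast markers summed to 3720 to 6616 CPM in KO_ON and 3346 to 5593 CPM in WT_ON, with 12 of 12 at a mean of at least 1 CPM, against 40.2 to 99.7 CPM in KO_CCg and 47.4 to 97.9 CPM in WT_CCg, with 10 of 12. The 6 markers of the arachnoid barrier summed to 263 to 540 CPM in KO_ON, 228 to 395 CPM in WT_ON, 12.6 to 23.3 CPM in KO_CCg and 14.0 to 20.6 CPM in WT_CCg. No marker of either list was at 0 in a whole group. The fibroblast sum was 78.2 times higher in KO nerve than in KO callosum and 68.1 times higher in WT nerve than in WT callosum. Markers of other cell types differed between the tissues as well. As a ratio of the mean sums of nerve over callosum, perivascular mural markers were at 4.40 in KO and 3.84 in WT mice, choroid plexus markers at 3.85 and 3.18, microglia markers at 2.70 and 2.13, and astrocyte markers at 2.64 and 2.56, while neuron markers were at 0.0896 in KO and 0.115 in WT mice. Of the 6 choroid plexus markers, 3 in KO_ON and 2 in WT_ON had a mean of at least 1 CPM, against 4 in each callosum group. The part of these cell types in the tissue differences was not tested.

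Within the nerve, Aldh1a2 followed that sum from library to library. The WT_ON libraries had 5593, 5327, 5213 and 3346 CPM of fibroblast markers and, in the same order, 285, 235, 212 and 177 CPM of Aldh1a2. The KO_ON libraries had 6616, 5356, 5292, 4262 and 3720 CPM of the markers and, in that order, 378, 268, 270, 211 and 172 CPM of Aldh1a2, with 268 and 270 out of step, and 83.6, 70.3, 59.0, 50.5 and 33.7 CPM of Crabp2. In the order of the markers the WT_ON libraries had 59.1, 54.1, 56.8 and 34.5 CPM of Crabp2, with 54.1 and 56.8 out of step. As a percentage of the fibroblast sum, Aldh1a2 was 5.08 ± 0.40 in KO_ON, 4.72 ± 0.58 in WT_ON, 1.47 ± 0.69 in KO_CCg and 1.75 ± 1.07 in WT_CCg. Crabp2 was 1.16 ± 0.16 in KO_ON, 1.05 ± 0.032 in WT_ON, 0.431 ± 0.208 in KO_CCg and 0.267 ± 0.211 in WT_CCg on that scale. The other genes called between the tissues differed from this. Stra6 was 2.35 ± 0.57% of the fibroblast sum in KO_ON and 1.97 ± 0.74% in WT_ON, against 9.25 ± 3.21% in KO_CCg and 5.88 ± 1.09% in WT_CCg. Aldh1a1 and Cyp26b1 were likewise a larger percentage in callosum, with Aldh1a1 at 6.98% in KO_ON, 7.84% in WT_ON, 41.2% in KO_CCg and 50.5% in WT_CCg. The part of the meninges in these differences was not tested.

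**Figure D3:**
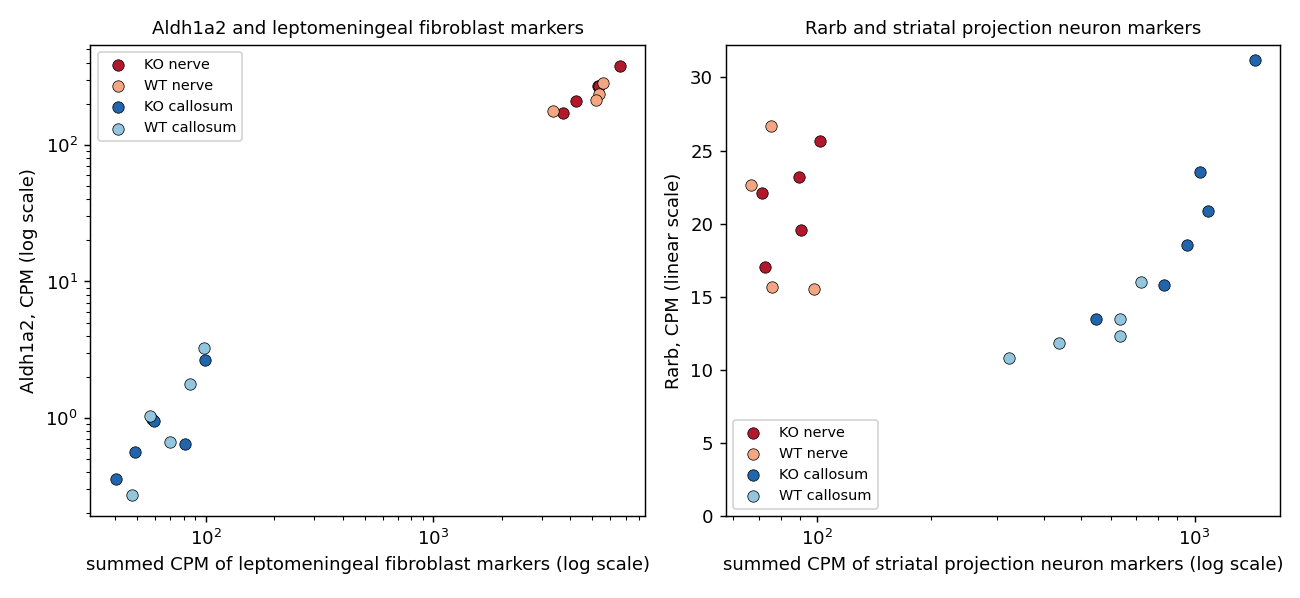
Left, Aldh1a2 (vertical axis, CPM, log scale) against the summed CPM of 12 leptomeningeal fibroblast markers (horizontal axis, log scale); right, Rarb (vertical axis, CPM, linear scale) against the summed CPM of 8 striatal projection neuron markers (horizontal axis, log scale), with 1 point per library in KO nerve, WT nerve, KO callosum and WT callosum. Aldh1a2 is at 172 CPM or more in the nerve libraries and at 3.25 CPM or less in the callosum libraries, and Rarb in callosum is higher in libraries with more striatal marker RNA, while the nerve libraries have 15.5 to 26.7 CPM of Rarb with at most 102 CPM of those markers.

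Other genes of the pathway were read from 5 lists of 12, 19, 4, 12 and 15 genes, a few of which stand in more than 1 list. Of the 10 tested genes of retinol uptake and storage, 2 were higher and 1 was lower in nerve in KO mice, and 3 were higher and 2 were lower in WT mice, with median log2 fold changes of 0.25 in KO and 0.21 in WT mice. These shares stand beside 30.1% of all genes called in KO and 26.2% in WT mice. The list was thus near the background in KO mice and above it in WT mice, with only 10 genes tested. Rbp4, the plasma retinol carrier, had log2 fold changes of 2.89 (SE 0.31) in KO and 3.25 (SE 0.35) in WT mice. Rbp2, the retinol carrier known from the intestine, failed the filter within nerve and was lower there, by -4.25 (SE 0.57) in KO and -4.99 (SE 0.65) in WT mice, at 0 to 0.142 CPM in nerve and at most 2.20 CPM in callosum. In WT mice Ttr, a carrier partner of RBP4 in plasma, was called lower (-3.62, SE 1.23), and Lrat, which stores retinol as esters, was called higher (1.01, SE 0.37). A single WT_CCg library had 39.9 CPM of Ttr, against a median of 1.16 CPM in that group.

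Of 15 tested oxidoreductases of retinol and retinal, 4 were higher and 1 was lower in nerve in each genotype, with medians of 0.44 in KO and 0.39 in WT mice. These shares are near the 30.1% and 26.2% of all genes called. Dhrs3, which turns retinal back into retinol, had 2.01 (SE 0.13) in KO and 2.15 (SE 0.14) in WT mice, and Rdh5 had 1.63 (SE 0.16) in KO and 1.32 (SE 0.18) in WT mice. Adh1 and Adh7, which failed the count filter within callosum, were also higher, at means of at most 3.95 CPM, and the gene that was lower was Aldh1a7. Of 12 tested receptors and coregulators, Rara (1.04 in KO and 1.10 in WT mice) and Rarg (1.64 and 1.84) were higher in nerve in both genotypes, and Rxrg (-1.39 and -1.09) was lower, with list medians of -0.056 in KO and -0.12 in WT mice. The share called in this list is also near the 30.1% and 26.2% of all genes. Of the other genes of clearance and transport, Fabp5 and Cyp2s1 were tested and 0 were called. Of 10 tested textbook targets of retinoic acid, 6 were higher in each genotype, against 14.9% of all genes called higher in KO and 13% in WT mice, and 0 were lower. The medians were 1.57 in KO and 1.70 in WT mice. Gprc5a, one of the 6, failed the count filter within callosum and was tested through its nerve level. Among them were Dhrs3, already named, and Tgm2, Cd38, Rarres1 and Gprc5a, which had log2 fold changes of 2.28, 1.14, 2.17 and 5.42 in KO and 1.67, 1.74, 2.50 and 4.43 in WT mice. Cyp26a1, the other textbook target with the receptor repeat in its window, was at most 0.514 CPM in any library and was not tested.

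Between the genotypes no member was called in either tissue. In optic nerve, 0 of the 8 genes tested passed (edgeR quasi-likelihood test, adjusted p under 0.05), against 2 of 15556 of all genes (0.0129%), and 0 had an unadjusted p under 0.05, against 852 of all genes. In corpus callosum, 0 of the 8 genes tested passed, against 6 of 15519 of all genes (0.0387%), of which 2 were higher (0.0129%) and 4 were lower (0.0258%), and 3 of the members had an unadjusted p under 0.05, against 1816 of all genes. DESeq2 called 0 of them in both tissues. The libraries of KO and WT mice overlapped for all 9 genes in both tissues, and the share of all genes that did so was not counted. Crabp1 in nerve and Crabp2 in callosum had too few counts for the filter. The KO estimate was above the WT estimate for 7 of the 8 tested genes in nerve, with a median log2 fold change of 0.18 against 0.012 over all genes, of which 52.8% were positive. It was above for 5 of 8 in callosum, with a median of 0.27 against -0.013 over all genes, of which 47.5% were positive.

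In optic nerve the intervals bound the differences. The log2 fold change of KO over WT was -0.12 for Aldh1a1 (95% interval -0.31 to 0.061), 0.17 for Aldh1a2 (-0.27 to 0.60), 0.20 for Aldh1a3 (-0.33 to 0.72) and 0.032 for Rdh10 (-0.23 to 0.30). It was 0.19 for Crabp2 (-0.30 to 0.69), 0.41 for Cyp26b1 (-0.23 to 1.06), 0.24 for Stra6 (-0.39 to 0.86) and 0.076 for Rarb (-0.31 to 0.46). Aldh1a1 averaged 341 ± 27.5 CPM in KO_ON and 367 ± 21.9 CPM in WT_ON, and Aldh1a2 averaged 260 ± 77.9 CPM in KO_ON and 227 ± 45.3 CPM in WT_ON (SD, n = 5 and 4). The intervals of Aldh1a1 and Rdh10 were the narrowest, and that of Cyp26b1 was the widest.

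In corpus callosum the smallest unadjusted p belonged to Rarb, with 20.6 ± 6.31 CPM in KO_CCg and 12.9 ± 1.98 CPM in WT_CCg (SD, n = 6 and 5). Its log2 fold change was 0.66 (SE 0.20, edgeR adjusted p = 0.303), and 4 of 6 KO libraries were above all WT libraries. Rarb followed the striatal markers from library to library. In order of falling Rarb, the KO_CCg libraries had 31.2, 23.5, 20.9, 18.6, 15.8 and 13.5 CPM of Rarb and 1449, 1033, 1086, 956, 830 and 549 CPM of the markers, with 1033 and 1086 out of step. The WT_CCg libraries had 15.997, 13.5, 12.3, 11.8 and 10.8 CPM of Rarb and 721, 634, 634, 438 and 323 CPM of the markers. With the mean log2 level of the striatal markers as a covariate, chosen after the data were seen, the log2 fold change of Rarb was 0.080 (SE 0.17). The marker level itself moved with the genotype, so this fit cannot tell the part of striatal tissue from that of the genotype. Other marker sums moved with the genotype in callosum too, with ratios of the KO over the WT mean of 1.58 for neuron, 1.54 for cortical excitatory neuron, 0.659 for oligodendrocyte and 0.808 for microglia markers, against 1.79 for the striatal markers. The microglia sums did not overlap, at 236 to 295 CPM in KO_CCg and 306 to 343 CPM in WT_CCg, and the part of these other cell types in the Rarb value was not tested. Within libraries with 2-digit sample numbers it was 1.32 (2 KO and 2 WT libraries), and within those with longer numbers it was 0.28 (4 KO and 3 WT libraries). Rxrg, a partner receptor, was highest in the WT_CCg library with the most striatal marker RNA and lowest in the one with the least. Its order in the other callosum libraries is not given here. Rxrg had 18.8 ± 5.68 CPM in KO_CCg and 11.7 ± 5.09 CPM in WT_CCg.

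The other values in callosum were smaller or less certain. Crabp1 averaged 0.769 ± 0.161 CPM in KO_CCg and 0.453 ± 0.186 CPM in WT_CCg, with a log2 fold change of 0.71 (SE 0.30, edgeR adjusted p = 0.406). Aldh1a1 averaged 23.8 ± 4.95 CPM in KO_CCg and 32.2 ± 9.73 CPM in WT_CCg, with a log2 fold change of -0.44 (SE 0.20, edgeR adjusted p = 0.427), which was -0.15 with the striatal covariate. That covariate moved with the genotype, so the fit cannot tell their parts apart. In order of falling Aldh1a1, the WT_CCg libraries had 82844, 76153, 71216, 55287 and 49772 CPM of oligodendrocyte markers. The KO_CCg libraries, ordered the same way, had 60823, 44938, 38091, 53740, 31208 and 36496 CPM of them. The part of these cell types in the Aldh1a1 value was not tested. Stra6 had a log2 fold change of 0.41 (95% interval -0.029 to 0.86) and Cyp26b1 of 0.38 (-0.061 to 0.82). Aldh1a2 had -0.48 (-1.75 to 0.79), Aldh1a3 had 0.16 (-0.41 to 0.73) and Rdh10 had -0.13 (-0.59 to 0.34). Without WT_CCg_685232, the callosum library with the most Aldh1a2, the Aldh1a2 value was 0.078.

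**Figure D4:**
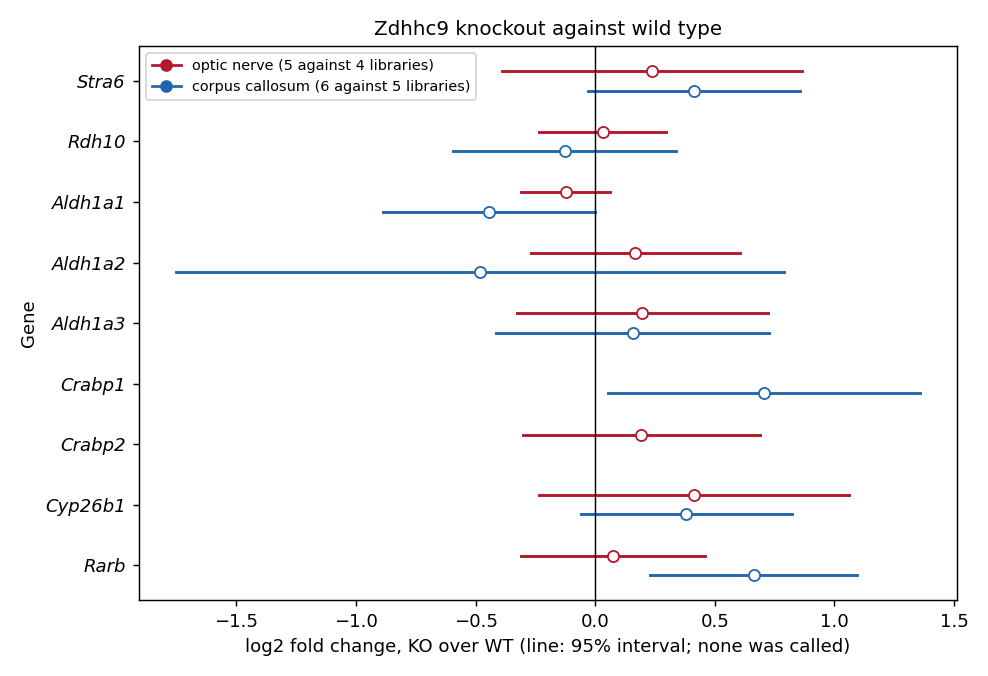
Log2 fold change of KO over WT on the horizontal axis for each gene in optic nerve (upper line) and corpus callosum (lower line), with 95% intervals; open points mark genes that edgeR did not call, and genes that failed the count filter have no point. In optic nerve every interval includes 0, while in corpus callosum the intervals of Rarb, Crabp1 and Aldh1a1 end on 1 side of 0 before adjustment.

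The difference of the knockout effect between the tissues was tested in 1 fit of all 20 libraries. None of the 9 genes was called, against 0 of 16440 of all genes (0%), and none of the 9 had an unadjusted p under 0.05, while 1123 of all genes did. DESeq2 called 0 genes. Rarb had the smallest p, with -0.58 (95% interval -1.17 to 0.018, edgeR adjusted p = 0.729), and Aldh1a2 had 0.69 (-0.58 to 1.96). No gene of the pathway lists was called for the genotype in either tissue or for this difference.

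For each of the 9 genes, the 3 genes with the most similar course over the 20 libraries were found by the root-mean-square difference of log2 CPM after each gene was centred on its own mean. For Aldh1a1 these were Cp, Ctxn3 and Srgn (0.236, 0.256 and 0.264 log2 units). For Aldh1a2 they were Itih2, H2-Eb1 and Slc22a6 (0.570, 0.710 and 0.727), the last of them on the arachnoid barrier list, and for Crabp2 they were Agt, Ogn and Fgl2 (0.633, 0.697 and 0.703), where Ogn is on the fibroblast list. For Stra6 they were Mmp19, Greb1 and Myof (0.374, 0.376 and 0.379), and for Cyp26b1 they were Mrc2, Slc6a20a and Efemp1 (0.454, 0.461 and 0.480). For Rarb they were Clip4, Foxp2 and Syne2 (0.241, 0.249 and 0.263), and for Rdh10 they were Ezr, 4933434E20Rik and Zfp105 (0.181, 0.183 and 0.188). For Aldh1a3 they were Map3k3, Shkbp1 and Alg12 (0.271, 0.280 and 0.281), and for Crabp1 they were Kcna5, Kcnh2 and Mtus2 (0.668, 0.725 and 0.734). The distances of Rarb, Rdh10 and Aldh1a3 stand beside a spread of each gene of only 0.42, 0.29 and 0.42 (SD over the libraries), while Aldh1a2 has a spread of 4.09.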

How the data were processed

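RNA was extracted from dissected optic nerve and corpus callosum and made into stranded mRNA libraries, per the labels' protocols. The authors deposited an estimated count per gene and library, an expected count that is not scaled to a common total; 30.14% of the values above 0 are whole within a tolerance of 1e-06. Per the submitters' processing notes, mm10 was the genome build; for the quantifier's version and the annotation the sources used here give nothing. Of 46517 identifiers, 46005 had a symbol in a GENCODE annotation of GRCm38, which also gave positions and lengths; 4 of the 9 members had the same identifier version there. Libraries held 15401130 to 26095622 counts, and 0 pairs were identical.

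Counts were rounded, filtered (filterByExpr, minimum count 10, minimum total 15), scaled by TMM and tested with the edgeR 4.0.16 quasi-likelihood test in R 4.3.3 (limma 3.58.1, DESeq2 1.42.0), with Benjamini-Hochberg adjustment over all genes tested. Genotype was fitted within each tissue; tissue contrasts and their difference came from 1 fit of all 20 libraries. A call needed an adjusted p under 0.05 and, between tissues, a log2 fold change of 1 or more in either direction. Standard errors came from the F statistic and 95% intervals from the t distribution with the test's degrees of freedom. Levels are CPM with TMM factors over all 20 libraries. Named were all 9 members, Aldh1a7, up to 4 called genes per pathway list with the smallest p, and the 3 genes of mean log2 CPM of at least 1 most like each member; Ttr, Cyp26a1 and single marker genes were named for the promoters or after their values were seen. A gene that this rule names and a marker gene are not reported here by name. Members, lists and tests were chosen with earlier results of these data known. The pipeline was tested on simulated counts. Alternatives were other size factors, other filters, DESeq2, unrounded counts, a joint fit, the format of the sample number, blocking on the sample number (replicate block) and dropping each library.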

Additional observations from a re-analysis of the deposited data

Results flagged for a closer look

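Each of the 36 sets of a gene and a group was searched for a library far from the others by Dixon's test at its 95% critical value, which chance passes in about 1 of 20 groups, and 3 were found. Crabp1 was at 2.11 CPM in KO_ON_719856, against at most 0.104 CPM in the other KO_ON libraries. It was at 0.888 CPM in WT_ON_717652, against at most 0.047 CPM in the other WT_ON libraries. Without either library, Crabp1 was called lower in nerve in that genotype, at -3.43 in KO and -4.56 in WT mice. As Crabp1 failed the count filter within nerve, such a call was bound to be found and its size is not determined. Aldh1a2 was at 2.65 CPM in KO_CCg_719856, the KO callosum library with the most fibroblast marker RNA (99.7 CPM), against at most 0.989 CPM in the other KO_CCg libraries.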

How the results depend on the processing

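Stra6, Aldh1a1, Aldh1a2, Crabp2 and Cyp26b1 were called higher in nerve in both genotypes under every alternative run, and 0 members were called for the genotype or its difference between tissues. Crabp2 failed the count filter within callosum, so its call was bound to be found in these alternatives too. In callosum 6 genes of all were called; 174 were called by DESeq2, 41 in the joint fit, 10 with the number format as a covariate, 2 within the longer numbers, 0 within the 2-digit numbers, 2 with the striatal covariate and 2 to 41 on leaving out a library, where 41 came without WT_CCg_685232. In nerve DESeq2 called 35 against 2, and for the difference between tissues leaving out a library gave 0 to 1.

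Values near 0 changed sign. Rdh10 in callosum was 0.079 within the 2-digit numbers; in KO mice its nerve over callosum value was 0.24 within the longer numbers, 0.0028 in limma-voom with a replicate block, 0.26 with a replicate block over the 3 shared KO numbers and 0.26 in those libraries without one, and in WT mice it was 0.0080 within the longer numbers. For the difference between tissues, Cyp26b1 was -0.0020 without a filter, and Stra6 was 0.014 and Crabp2 0.41 within the longer numbers. Leaving out each library gave, for KO over WT in callosum, -1.02 to 0.078 for Aldh1a2 and -0.27 to 0.020 for Rdh10; in nerve, -0.032 to 0.24 for Rarb and -0.034 to 0.097 for Rdh10; for nerve over callosum in KO mice, -0.057 to 0.19 for Rarb and -0.14 to 0.095 for Rdh10; and for the difference between tissues, -0.062 to 0.17 for Aldh1a3, -2.43 to 3.80 for Crabp1, -0.44 to 0.16 for Crabp2, -0.17 to 0.26 for Cyp26b1 and -0.37 to 0.13 for Stra6. The cause was not tested.

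The same sample numbers occur in both tissues for 3 KO and 1 WT numbers, but the labels do not say that they mark an animal, and deviations of same-numbered KO libraries correlated at 0.0178, -0.152 and 0.134, so pairing was not shown. With the replicate block 4410 genes and 5 members were called over the shared KO numbers, against 4446 and 5 without it. With the number as a random replicate block in limma-voom, 4918 genes and 6 members were called in KO and 4291 and 6 in WT mice. Among them Crabp1 was called lower, at -2.41 in KO and -2.79 in WT mice. The edgeR fit did not call Crabp1, at -0.77 in KO and -0.99 in WT mice. Crabp1 failed the count filter within nerve and was tested through the callosum libraries. Nothing is therefore drawn from its call, and its size is not determined.

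Low counts limit Crabp1 in nerve, Crabp2 in callosum and Aldh1a2 in callosum. The number of libraries limits the genotype comparisons, whose intervals reach beyond a log2 fold change of 0.5 for most members. The lengths behind per-kilobase levels come from an annotation that shares the table's identifier version for 4 of the 9 members.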
